A study of Mus musculus with 19 samples.

Results

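The cytochrome P450 genes of families 1, 2 and 3 were followed across mouse kidneys. The members were every row of the deposited kidney count table whose symbol starts with Cyp1, Cyp2 or Cyp3 followed by a subfamily letter and a gene number, without pseudogene names. This gave 61 genes of 40413 rows, in 16 subfamilies. Of these, 27 had enough reads to be tested and 34 did not.

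The groups were BPH/2J mice, an inbred strain with high blood pressure, given Cmpd17b (5 libraries deposited, 4 used) or vehicle (5 libraries), and BPN/3J mice, the blood-pressure-normal strain bred alongside it, given Cmpd17b (5 libraries) or vehicle (4 libraries). Cmpd17b, a small-molecule agonist of formyl peptide receptors, was injected into the peritoneum at 50 mg/kg/day for 28 days in adult mice, and the labels used here give no sex. Each library is polyadenylated RNA of 1 kidney sample, and every library carries batch number 2. The strains differ across the genome as well as in blood pressure, so these cannot be told apart. BPH/2J Cmpd17b replicate 1 was left out of every value below unless named. It holds heart muscle transcripts (14200 CPM, counts per 1000000 counts, of Myh6, against at most 28.3 in the other 18) and almost none of the kidney phosphate transporter Slc34a1 (5.94 CPM, against at least 2202). The 18 libraries held 21400111 to 40998650 counts each.

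Cytochrome P450s are haem enzymes of the endoplasmic reticulum that insert oxygen into steroids, fatty acids, drugs and other small molecules, using electrons passed on by the reductase Por. Family 1 genes are classic targets of the aryl hydrocarbon receptor. Families 2 and 3 hold most drug and steroid oxidising P450s, and their Cyp2c and Cyp2j enzymes can turn arachidonic acid into epoxides, lipid mediators of vessel tone and tubular sodium transport.

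Many of these genes arose by duplication and lie side by side, so reads can be assigned to the wrong copy where copies are alike. The 3 pairs below each hold at least 1 gene called in a strain comparison. Each is shown over the 60 coding bases in which the pair differs most, from GENCODE transcripts on GRCm38. Capitals mark the bases that differ within the pair. Cyp2d12 and Cyp2d26, on chromosome 15, are shown at coding bases 629 to 688, counted from the start codon.
Cyp2d12: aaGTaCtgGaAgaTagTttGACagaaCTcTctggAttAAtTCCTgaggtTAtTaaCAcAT
Cyp2d26: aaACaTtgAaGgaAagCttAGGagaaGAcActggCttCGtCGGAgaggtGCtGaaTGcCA
Cyp2j13 and Cyp2j6, on chromosome 4, are shown at coding bases 220 to 279.
Cyp2j13: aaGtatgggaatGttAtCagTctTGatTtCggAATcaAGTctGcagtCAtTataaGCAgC
Cyp2j6: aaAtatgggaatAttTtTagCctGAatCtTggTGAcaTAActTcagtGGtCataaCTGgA
Cyp2a4 and Cyp2a5, on chromosome 7, are shown at coding bases 596 to 655.
Cyp2a4: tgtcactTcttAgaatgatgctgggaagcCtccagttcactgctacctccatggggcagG
Cyp2a5: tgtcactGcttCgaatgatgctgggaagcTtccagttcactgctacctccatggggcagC

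The Cyp2d pair differed at 27 of these 60 bases and the Cyp2j pair at 23. Over the whole coding sequence they were 80.69% and 79.72% identical. Cyp2d12 was more like 2 other genes of its cluster, at 92.13% identity with Cyp2d9 and 91.14% with Cyp2d10. Cyp2a4 and Cyp2a5 differed at 4 of the 60 bases and at 23 of 1482 coding bases, an identity of 98.45%. A read of 150 bases can be traced to 1 gene only where no other gene holds the same stretch. For 21 of the 27 tested members no stretch of 150 bases of the transcript recurred in another gene's transcripts. For Cyp2a4 it was 4.22%, for Cyp2a5 5.79%, for Cyp2d10 6.40%, for Cyp2d9 1.54%, for Cyp2d12 0.60% and for Cyp2c69 22.51% of stretches, so the values of Cyp2c69 are uncertain.

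Renal expression rested on few of the 61 genes. By their median over the 18 libraries, 19 members reached 1 CPM, 13 reached 10 CPM and 8 reached 100 CPM. Cyp2e1, which oxidises ethanol, acetone and small solvents, made up 46.6% of the summed CPM of all members, and Cyp2j5, an arachidonic acid epoxygenase of the mouse proximal tubule, 19.9%. The 8 highest members made up 96.2% of the sum. Families 1, 2 and 3 had 2 of 3, 23 of 49 and 2 of 9 members tested. No member of Cyp2g, Cyp2r, Cyp2t or Cyp2w was tested, and Cyp2b19, Cyp2c66, Cyp2g1, Cyp3a41a, Cyp3a41b and Cyp3a44 had no count in any library. The highest value of any untested member in any library was 0.807 CPM. Just inside the limit for testing stood Cyp2d10, Cyp2c29 and Cyp2c38, with 133, 134 and 218 counts over 18 libraries, and just outside stood Cyp2c68, Cyp1a2 and Cyp2b23, with 89, 59 and 56.

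Per kilobase of transcript, the scale on which genes can be compared, Cyp2e1 stood first at a median of 1498 CPM per kilobase (990.0 to 2330 over the 18 libraries). Cyp2j5 followed at 525 CPM per kilobase (297 to 567). Their ranges did not overlap. Cyp2a4, a steroid hydroxylase, had a median of 307 CPM per kilobase, and Cyp2d9, a testosterone hydroxylase best known from male mouse liver, 215. Cyp2j13 (101), the coumarin hydroxylase Cyp2a5 (92.5), Cyp2d12 (64.2), Cyp2j11 (63.7) and Cyp2d26 (55.6) formed the next steps, and neighbours from Cyp2j5 down to Cyp2d26 overlapped in range over the libraries. Below them, with no overlap in range, came Cyp2j6 at 11.5 CPM per kilobase (8.92 to 15.8), Cyp2j9 at 10.6 and Cyp2d22 at 6.03. The other 15 tested members had medians from 0.038 to 3.40 CPM per kilobase.

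**Figure D1:**
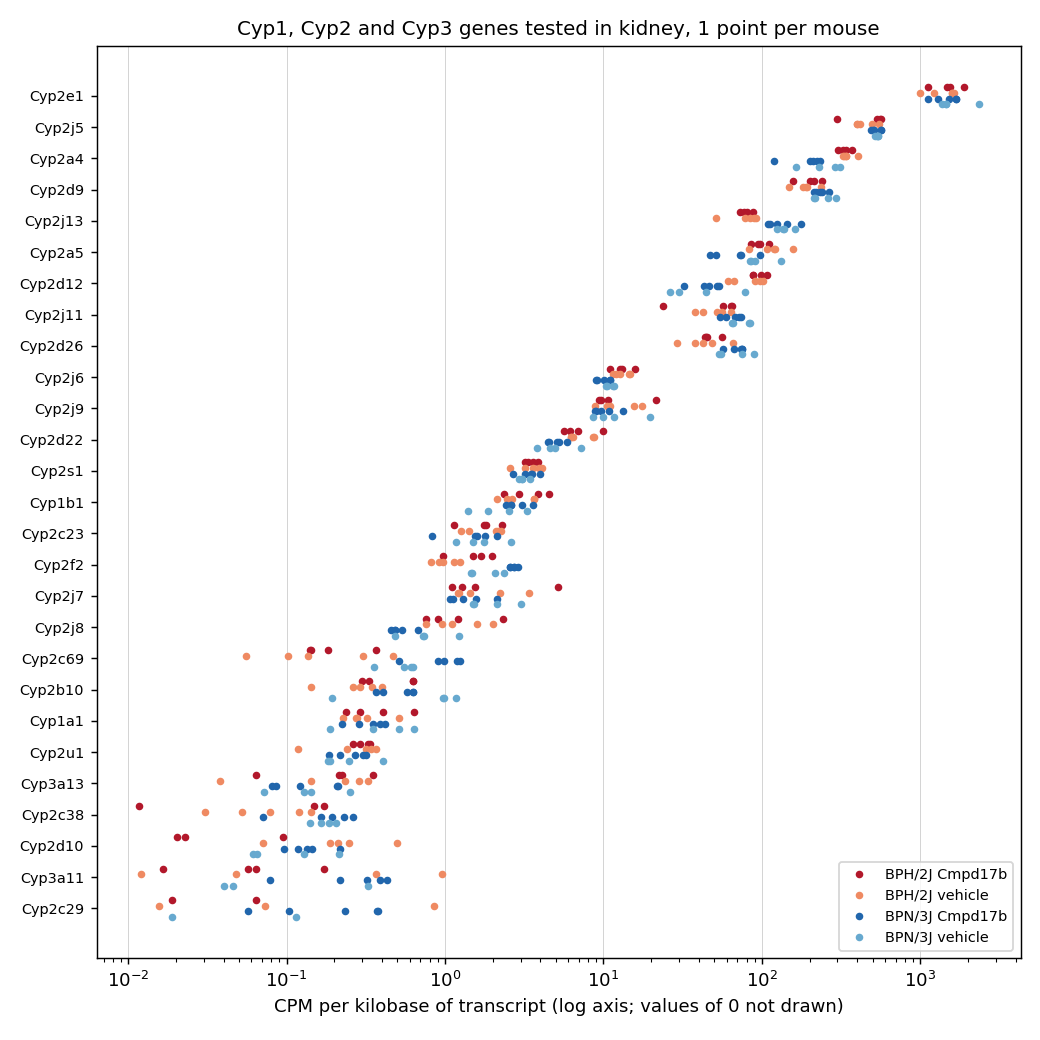
Level of each of the 27 tested genes in CPM per kilobase of transcript, on a log axis, with 1 point per mouse and 1 colour per group. Cyp2e1 lies highest at a median of 1498 CPM per kilobase and Cyp2c29 lowest at 0.038, and the BPH/2J points lie apart from the BPN/3J points in Cyp2j13.

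The summed level of all members did not separate the 4 groups. It was 5849 ± 955 CPM in BPH/2J Cmpd17b kidneys (SD, n = 4) and 5582 ± 699 CPM in BPH/2J vehicle kidneys (n = 5). In BPN/3J kidneys it was 5806 ± 509 CPM under Cmpd17b (n = 5) and 6384 ± 952 CPM under vehicle (n = 4). The ranges of the 4 groups overlapped. Within them, however, the Cyp2a and Cyp2j subfamilies were not equal between the strains. The Cyp2a genes summed to 755 to 943 CPM in BPH/2J vehicle kidneys, against 549 to 723 CPM in BPN/3J vehicle kidneys, and to 752 to 837 CPM in BPH/2J Cmpd17b kidneys, against 301 to 600 CPM in BPN/3J Cmpd17b kidneys. The Cyp2j genes summed to 1361 to 1884 CPM in BPH/2J vehicle kidneys, against 1999 to 2139 CPM in BPN/3J vehicle kidneys, whereas the Cmpd17b groups overlapped (1169 to 1897 CPM in BPH/2J, against 1859 to 2276 CPM in BPN/3J). Sums over near-identical copies do not depend on how reads were split between those copies, provided that all shared reads were counted within the sum. How reads were counted is not given in the sources used here. No test was run on the sums.

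Which P450 genes differed between the hypertensive and the normotensive strain was asked once in vehicle kidneys and once in Cmpd17b kidneys. The 2 comparisons share no library, but they share the fit's estimate of spread. With edgeR's quasi-likelihood test over 16421 genes and Benjamini-Hochberg adjustment at 0.05, 5 of 27 tested members were called under vehicle (18.5%, against 10.8% of all genes tested). Of these 1 was higher in BPH/2J and 4 were lower, against 5.82% and 4.94% of all genes tested. Under Cmpd17b 7 of 27 were called (25.9%, against 10.4% of all genes tested). Here 4 were higher and 3 lower, against 5.71% and 4.65% of all genes tested. At an unadjusted p under 0.05 there were 11 of 27 members under vehicle, against 23.9% of all genes tested. Under Cmpd17b there were 12 of 27, against 24.1% of all genes tested. The median log2 fold change over the 27 was 0.06 under vehicle and 0.06 under Cmpd17b, beside 0.04 and 0.01 over all genes tested. The groups' ranges did not overlap for 4 of 27 members under vehicle, against 13.6% of all genes tested. Under Cmpd17b they did not overlap for 8 of 27, against 12.8% of all genes tested. Cyp2d12, Cyp2f2 and Cyp2j13 were called in both comparisons, and 9 members in at least 1.

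Leaving out single libraries took the vehicle count to 3 without BPH/2J vehicle replicate 3 or 4 or BPN/3J vehicle replicate 1 or 3, and to 2 without BPN/3J vehicle replicate 2. The Cmpd17b count lay between 5 and 8 over the same 18 omissions. With the heart-containing library kept in the fit, the counts were 0 under vehicle and 1 under Cmpd17b, where Cyp2c69 was the member still called. The p-values set each difference against the spread between mice, which was estimated over all 4 groups together. The labels give 1 library per animal and no repeat culture or litter.

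Other features moved with strain. Beside the marker counts here stand the shares of all genes tested, 10.8% called under vehicle and 10.4% under Cmpd17b. Mitochondrial transcripts made up 15.8% to 26.2% of counts in BPH/2J kidneys, against 12.5% to 16.03% in BPN/3J kidneys. Markers of the first proximal tubule segments summed to 5260 to 8921 CPM in BPH/2J vehicle kidneys, against 8150 to 10120 CPM in BPN/3J vehicle kidneys. Under Cmpd17b they summed to 8500 to 9184 CPM in BPH/2J kidneys, against 9506 to 10434 CPM in BPN/3J kidneys. In each comparison 1 of these 12 markers, the glucose transporter Slc2a2, was called, lower in BPH/2J, and none was at 0. Of 10 markers of the last proximal segment, Slc6a18 alone was called, lower in BPH/2J, and the list summed to 4512 to 5555 CPM in BPH/2J vehicle kidneys against 5767 to 6728 CPM in BPN/3J vehicle kidneys, and to 4273 to 5692 CPM in BPH/2J Cmpd17b kidneys against 5516 to 5988 CPM in BPN/3J Cmpd17b kidneys. Smooth muscle markers were called higher in BPH/2J for 4 of 4 under vehicle and 0 of 4 under Cmpd17b, podocyte markers for 4 and 1 of 5, and stromal markers for 2 and 0 of 6. Heart muscle markers summed to 113 to 156 CPM in the 4 BPH/2J Cmpd17b libraries used, against at most 7.09 CPM in every other library, and 7 of 7 tested were called higher for Cmpd17b in BPH/2J. The part of these in the P450 differences was not tested, and in bulk kidney fewer cells of a type and less RNA per cell cannot be told apart.

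Cyp2j13, of the Cyp2j epoxygenase and hydroxylase subfamily, was the member with the lowest adjusted p in both comparisons and was lower in BPH/2J. Its 5 BPH/2J vehicle kidneys had 403, 389, 340, 223 and 370 CPM, against 591, 545, 599 and 706 CPM in the 4 BPN/3J vehicle kidneys. The 4 BPH/2J Cmpd17b kidneys had 339, 386, 353 and 316 CPM, against 477, 775, 632, 495 and 545 CPM in the 5 BPN/3J Cmpd17b kidneys. Every BPH/2J kidney lay below every BPN/3J kidney under both treatments. The log2 fold change was -0.82 (SE 0.17, adjusted p 0.00265 by edgeR) under vehicle and -0.75 (SE 0.17, adjusted p 0.00615) under Cmpd17b, and both calls held without any single library.

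Cyp2j6, a few genes away in the same cluster on chromosome 4, stood the other way. It had 41.5, 43.3, 52.8, 45.9 and 52.3 CPM in BPH/2J vehicle kidneys, against 38.1, 37.4, 41.6 and 42.3 CPM in BPN/3J vehicle kidneys, where the groups overlapped and it was not called (log2 fold change 0.24, SE 0.11, adjusted p 0.195 by edgeR). Under Cmpd17b it had 39.6, 47.3, 46.0 and 57.0 CPM in BPH/2J kidneys, against 32.2, 36.4, 33.0, 39.4 and 39.7 CPM in BPN/3J kidneys. The groups overlapped only at their edges, and Cyp2j6 was called higher in BPH/2J (0.39, SE 0.11, adjusted p 0.0292 by edgeR). That call was lost without BPH/2J Cmpd17b replicate 3 or 5 or BPN/3J Cmpd17b replicate 1, 2 or 3 (adjusted p 0.0573 to 0.106), with all low genes kept (0.0848) and with the 2 groups fitted alone (0.0885).

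Because both genes are counted in the same library, their ratio does not depend on library scaling. Cyp2j13 over Cyp2j6 averaged 7.41 ± 1.96 in BPH/2J vehicle kidneys (SD, n = 5), against 15.3 ± 1.05 in BPN/3J vehicle kidneys (n = 4). Under Cmpd17b it averaged 7.48 ± 1.34 in BPH/2J kidneys (n = 4), against 16.3 ± 3.74 in BPN/3J kidneys (n = 5). The highest ratio of any BPH/2J kidney was 9.71 and the lowest of any BPN/3J kidney 12.5. A ratio shows unequal change of the pair, not which gene changed. This pair was picked with the strain difference of both genes known, so no test was made. Cyp2j13 alone also separated the strains.

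The remaining Cyp2j genes differed less or were low. Cyp2j5 had 1293, 1164, 932, 970 and 940 CPM in BPH/2J vehicle kidneys, against 1258, 1264, 1263 and 1218 CPM in BPN/3J vehicle kidneys. Under Cmpd17b it had 1245, 1330, 1302 and 695 CPM in BPH/2J kidneys, against 1191, 1331, 1329, 1185 and 1147 CPM in BPN/3J kidneys. The groups overlapped and Cyp2j5 was not called in either comparison (log2 fold change -0.24, 95% interval -0.57 to 0.09, adjusted p 0.374 by edgeR under vehicle, and -0.11, interval -0.44 to 0.22, adjusted p 0.691 under Cmpd17b). The ratio of Cyp2j13 to Cyp2j5 was 0.230 to 0.393 in BPH/2J vehicle kidneys, against 0.431 to 0.580 in BPN/3J vehicle kidneys, and it overlapped under Cmpd17b (0.271 to 0.454 in BPH/2J, against 0.400 to 0.582 in BPN/3J).

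Cyp2j11 had 72.5 to 122 CPM in BPH/2J vehicle kidneys, against 124 to 162 CPM in BPN/3J vehicle kidneys. These groups did not overlap, yet the gene was not called (log2 fold change -0.56, SE 0.22, adjusted p 0.123 by edgeR), nor was it under Cmpd17b (-0.31, SE 0.22, adjusted p 0.414). Cyp2j8, at about 1 CPM, had 1.14, 1.82, 1.36 and 3.52 CPM in BPH/2J Cmpd17b kidneys, against 0.729, 0.691, 0.726, 0.813 and 1.02 CPM in BPN/3J Cmpd17b kidneys. It was called higher in BPH/2J there (1.28, SE 0.36, adjusted p 0.0266 by edgeR) and not under vehicle (0.70, SE 0.35, adjusted p 0.241). Without BPH/2J Cmpd17b replicate 5, its highest library, the value was 0.85 (adjusted p 0.140), and the call was also lost without BPN/3J Cmpd17b replicate 1, 2, 3 or 4 (0.0514 to 0.0664) and in limma-voom (0.0801). Cyp2j7 and Cyp2j9 were not called in either strain comparison.

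**Figure D2:**
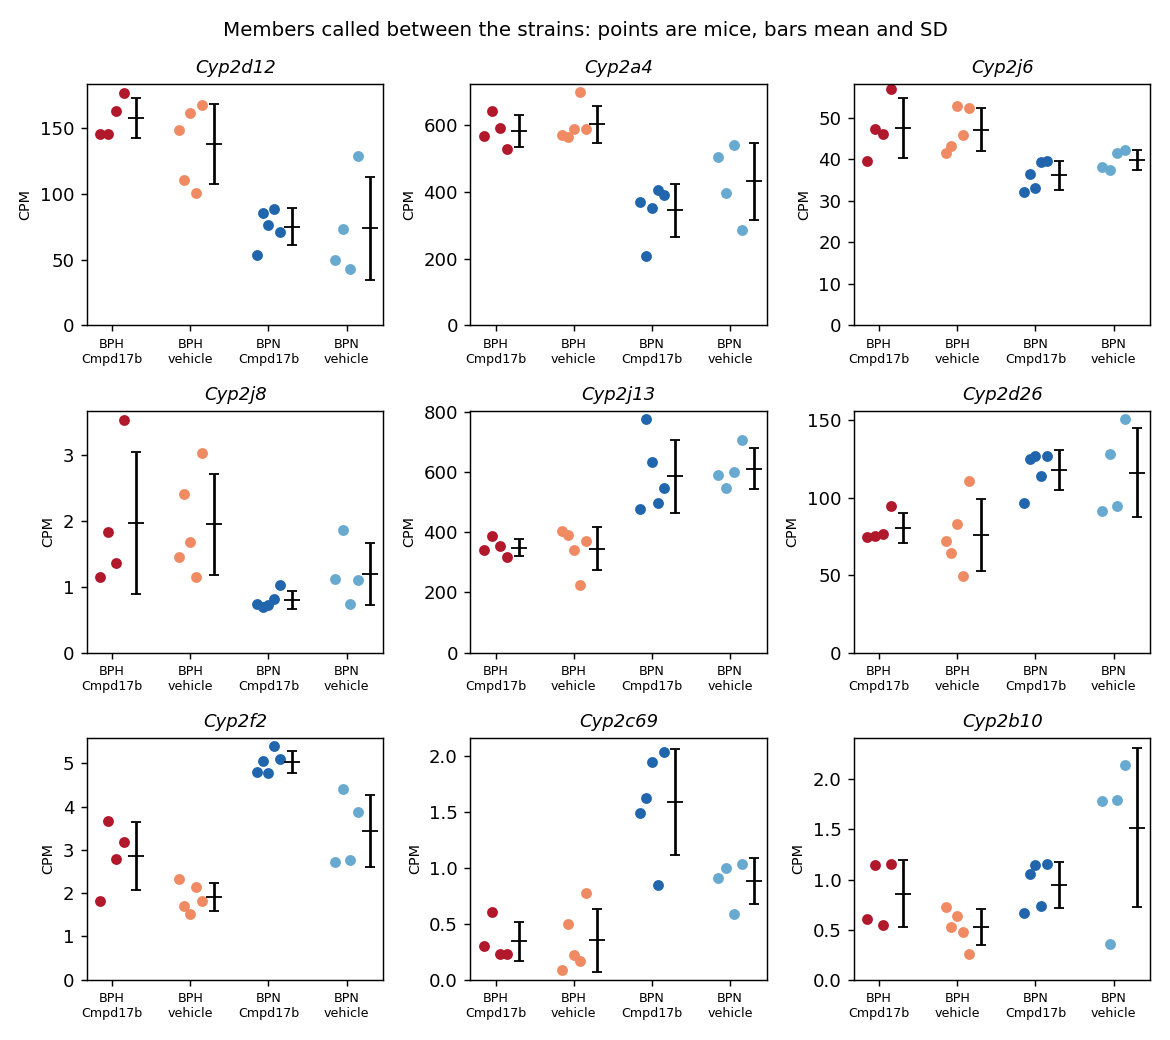
CPM of the 9 genes called in at least 1 strain comparison, with 1 point per mouse and the group mean and SD beside it, in 4 groups from BPH/2J Cmpd17b on the left to BPN/3J vehicle on the right. Cyp2j13 and Cyp2f2 lie lower and Cyp2d12 mostly higher in BPH/2J than in BPN/3J under the same treatment.

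The Cyp2d cluster on chromosome 15 also held genes called in opposite directions. Cyp2d12 had 149, 111, 162, 101 and 168 CPM in BPH/2J vehicle kidneys, against 49.5, 73.7, 43.3 and 129 CPM in BPN/3J vehicle kidneys. Under Cmpd17b it had 146, 146, 163 and 177 CPM in BPH/2J kidneys, against 53.6, 85.8, 76.8, 88.6 and 71.2 CPM in BPN/3J kidneys. The vehicle groups overlapped through BPN/3J vehicle replicate 4, and the Cmpd17b groups did not overlap. Cyp2d12 was called higher in BPH/2J under vehicle (log2 fold change 0.90, SE 0.26, adjusted p 0.0284 by edgeR) and under Cmpd17b (1.07, SE 0.25, adjusted p 0.0083). The vehicle call was lost without BPH/2J vehicle replicate 3 or 5 or BPN/3J vehicle replicate 1, 2 or 3 (adjusted p 0.0615 to 0.107) and with the 2 groups fitted alone (0.0903), and the Cmpd17b call held without any single library.

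Cyp2d26, further along the cluster, had 71.8, 64.6, 82.9, 49.4 and 111 CPM in BPH/2J vehicle kidneys, against 91.2, 128, 94.4 and 151 CPM in BPN/3J vehicle kidneys. In the Cmpd17b groups the values were 74.4, 75.4, 76.8 and 94.7 CPM in BPH/2J kidneys, against 96.7, 125, 127, 114 and 127 CPM in BPN/3J kidneys. It was called lower in BPH/2J under vehicle (-0.62, SE 0.19, adjusted p 0.0453 by edgeR), where the ranges overlapped, and not under Cmpd17b (-0.56, SE 0.19, adjusted p 0.0787), where they did not. The vehicle call stood close to the threshold. It was lost in 12 of 18 omissions, namely without BPH/2J Cmpd17b replicate 2 or 3, BPH/2J vehicle replicate 1, 2, 3 or 4, BPN/3J Cmpd17b replicate 2, 3, 4 or 5 or BPN/3J vehicle replicate 2 or 4 (adjusted p 0.0518 to 0.164), and with the 2 groups fitted alone (0.115). Under Cmpd17b it was called by DESeq2 (0.0392), with the 2 groups fitted alone (0.0196) and without BPH/2J vehicle replicate 4 or 5 (0.046 and 0.0394).

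Within a library the pair separated the strains more clearly than either gene. Cyp2d12 over Cyp2d26 was 2.07, 1.72, 1.96, 2.05 and 1.51 in BPH/2J vehicle kidneys, against 0.543, 0.573, 0.459 and 0.854 in BPN/3J vehicle kidneys. Under Cmpd17b it was 1.96, 1.93, 2.12 and 1.87 in BPH/2J kidneys, against 0.554, 0.684, 0.605, 0.776 and 0.560 in BPN/3J kidneys. Thus Cyp2d12 had more counts than Cyp2d26 in all 9 BPH/2J kidneys and fewer in all 9 BPN/3J kidneys. The pair was picked with the strain difference of both genes known, so no test was made.

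**Figure D3:**
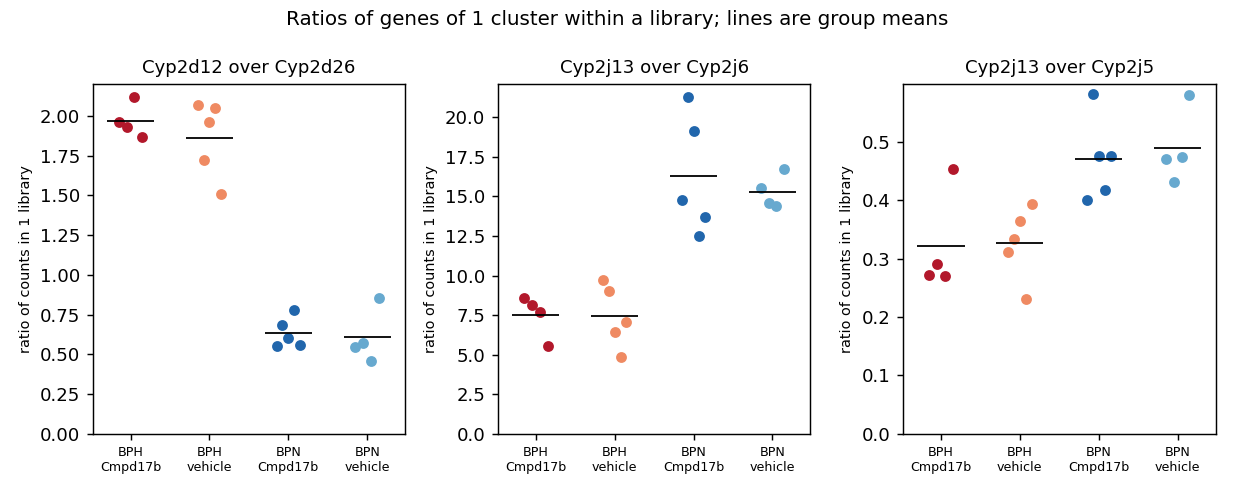
Ratio of the counts of 2 genes of the same cluster in the same library for Cyp2d12 over Cyp2d26, Cyp2j13 over Cyp2j6 and Cyp2j13 over Cyp2j5, with 1 point per mouse, a line at each group mean and axes starting at 0. The first ratio is 1.51 to 2.12 in BPH/2J kidneys and 0.459 to 0.854 in BPN/3J kidneys.

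Cyp2d9 had 403, 328, 309, 326 and 255 CPM in BPH/2J vehicle kidneys, against 365, 449, 369 and 506 CPM in BPN/3J vehicle kidneys, and 346, 411, 364 and 269 CPM in BPH/2J Cmpd17b kidneys, against 397, 374, 409, 457 and 365 CPM in BPN/3J Cmpd17b kidneys. The groups overlapped and it was not called (log2 fold change -0.38, SE 0.14, adjusted p 0.105 by edgeR under vehicle, and -0.21, SE 0.15, adjusted p 0.411 under Cmpd17b). Cyp2d22 averaged 20.0 ± 3.67 CPM in BPH/2J vehicle kidneys (SD, n = 5), against 14.3 ± 4.10 CPM in BPN/3J vehicle kidneys (n = 4), and was not called in either comparison (0.49 in both, adjusted p 0.119 and 0.115 by edgeR).

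Of the 2 tested Cyp2a genes, Cyp2a4 had 570, 563, 588, 699 and 589 CPM in BPH/2J vehicle kidneys, against 503, 397, 540 and 285 CPM in BPN/3J vehicle kidneys. Under Cmpd17b it had 567, 642, 590 and 528 CPM in BPH/2J kidneys, against 368, 207, 352, 405 and 389 CPM in BPN/3J kidneys. Every BPH/2J kidney lay above every BPN/3J kidney under the same treatment. Cyp2a4 was called higher in BPH/2J under Cmpd17b (log2 fold change 0.76, SE 0.18, adjusted p 0.0103 by edgeR), without any single library as well, but not under vehicle (0.48, SE 0.19, adjusted p 0.113). The interaction was not called (0.28, SE 0.26, adjusted p 1), so the strain differences under the 2 treatments were not shown to differ.

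Cyp2a5 had 318, 239, 166, 245 and 216 CPM in BPH/2J vehicle kidneys, against 171, 170, 183 and 264 CPM in BPN/3J vehicle kidneys, and 190, 195, 173 and 224 CPM in BPH/2J Cmpd17b kidneys, against 146, 94.5, 103, 195 and 148 CPM in BPN/3J Cmpd17b kidneys. The groups overlapped under both treatments, and Cyp2a5 was not called (0.27, adjusted p 0.467 by edgeR under vehicle, and 0.51, adjusted p 0.134 under Cmpd17b). Given their near identity, a part of the reads of Cyp2a4 and Cyp2a5 may have been assigned to the other gene.

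Cyp2e1, the highest member, had 2971, 2888, 2918, 1815 and 2252 CPM in BPH/2J vehicle kidneys, against 2663, 2503, 2647 and 4271 CPM in BPN/3J vehicle kidneys. Under Cmpd17b it had 2708, 3455, 2824 and 2040 CPM in BPH/2J kidneys, against 2059, 3061, 2785, 2358 and 3089 CPM in BPN/3J kidneys. The groups overlapped, and no strain difference was called (log2 fold change -0.23, 95% interval -0.65 to 0.18, adjusted p 0.501 by edgeR under vehicle, and 0.05, interval -0.37 to 0.46, adjusted p 0.910 under Cmpd17b). A p above the threshold does not show that the strains are alike, and the intervals give the changes that remain possible.

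Cyp2f2, known for bioactivating naphthalene in airway club cells, was low in kidney and lower in BPH/2J. It had 2.33, 1.70, 1.53, 2.14 and 1.82 CPM in BPH/2J vehicle kidneys, against 2.72, 4.40, 2.76 and 3.88 CPM in BPN/3J vehicle kidneys. Under Cmpd17b it had 1.81, 3.67, 2.80 and 3.17 CPM in BPH/2J kidneys, against 4.79, 5.06, 4.77, 5.39 and 5.09 CPM in BPN/3J kidneys. Neither pair of groups overlapped, and the log2 fold changes were -0.85 (SE 0.21, adjusted p 0.0104 by edgeR) and -0.81 (SE 0.21, adjusted p 0.0144). The vehicle call was lost without BPN/3J vehicle replicate 2 (adjusted p 0.0522).

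The promoters of Cyp2j13 and Cyp2f2, the 2 members called lower in both comparisons, and of Cyp2a4, called higher under Cmpd17b, are shown because their strain groups did not overlap under either treatment. Each runs from 250 bases before to 50 bases after the gene's start, in RefSeq's GRCm38.p6 table, and capitals mark letters that match a searched motif on either strand.
Cyp2j13, chr4:96077491-96077790, minus strand: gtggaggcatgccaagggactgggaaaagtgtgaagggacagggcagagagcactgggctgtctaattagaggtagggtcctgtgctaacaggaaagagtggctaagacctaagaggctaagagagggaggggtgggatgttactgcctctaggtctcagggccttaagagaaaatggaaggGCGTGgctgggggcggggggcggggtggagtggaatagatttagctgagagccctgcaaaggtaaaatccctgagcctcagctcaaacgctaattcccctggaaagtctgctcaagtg
Cyp2f2, chr7:27119705-27120004, plus strand: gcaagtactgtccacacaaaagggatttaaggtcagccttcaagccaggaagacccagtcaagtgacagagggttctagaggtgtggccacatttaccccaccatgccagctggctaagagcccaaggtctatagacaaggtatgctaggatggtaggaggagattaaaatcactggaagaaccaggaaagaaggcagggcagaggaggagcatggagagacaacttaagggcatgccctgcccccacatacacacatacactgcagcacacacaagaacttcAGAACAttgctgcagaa
Cyp2a4, chr7:26306942-26307241, plus strand: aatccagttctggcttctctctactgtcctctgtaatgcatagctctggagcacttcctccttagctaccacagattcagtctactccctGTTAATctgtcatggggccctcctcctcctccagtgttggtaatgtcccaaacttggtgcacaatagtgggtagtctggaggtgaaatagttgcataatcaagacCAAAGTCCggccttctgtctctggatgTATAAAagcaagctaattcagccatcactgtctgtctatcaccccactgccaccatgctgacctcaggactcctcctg

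The 5 motifs spelled out in this paragraph were searched on both strands in the 22 tested members with a promoter in that table, and in these 3 promoters no match overlapped another. Cyp2j13 held the core of the xenobiotic response element, GCGTG, present in 5 of 22 member promoters and 32.39% of 32851 promoters of the same length. Cyp2f2 held 1 androgen receptor half-site, AGAACA, present in 8 of 22 member promoters and 18.97% of all. Cyp2a4 held the HNF1-type letters GTTAAT, the HNF4-type letters CAAAGTCC and the TATA box core TATAAA. The first 2 were each present in 4 of 22 member promoters, against 7.10% and 1.42% of all promoters, and Cyp2a4 and Cyp2a5 are near copies among those 4. The TATA core was present in 12 of 22 member promoters and 13.62% of all promoters. These are descriptions of letters in a reference strain's sequence, not of binding.

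Among low Cyp2b and Cyp2c genes, Cyp2b10, a target of the xenobiotic receptor CAR in liver, had 0.725, 0.527, 0.634, 0.478 and 0.259 CPM in BPH/2J vehicle kidneys, against 1.78, 0.352, 1.79 and 2.14 CPM in BPN/3J vehicle kidneys. It was called lower in BPH/2J under vehicle (log2 fold change -1.52, SE 0.42, adjusted p 0.0245 by edgeR) although the groups overlapped through BPN/3J vehicle replicate 2. The call was lost without BPH/2J vehicle replicate 4 or 5 or BPN/3J vehicle replicate 1, 3 or 4 (adjusted p 0.0547 to 0.0839), in limma-voom (0.108) and with the 2 groups fitted alone (0.0719). Under Cmpd17b its values were 0.602, 1.14, 0.545 and 1.15 CPM in BPH/2J kidneys, against 0.665, 1.05, 1.14, 0.739 and 1.15 CPM in BPN/3J kidneys, with no call (-0.16, adjusted p 0.847).

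Cyp2c69, whose reads overlap those of Cyp2c40, had 0.301, 0.605, 0.234 and 0.231 CPM in BPH/2J Cmpd17b kidneys, against 1.49, 1.63, 1.95, 0.849 and 2.04 CPM in BPN/3J Cmpd17b kidneys. These did not overlap, and it was called lower in BPH/2J (log2 fold change -2.19, SE 0.50, adjusted p 0.00654 by edgeR). Under vehicle it had 0.0907, 0.498, 0.224, 0.169 and 0.778 CPM in BPH/2J kidneys, against 0.908, 0.997, 0.589 and 1.04 CPM in BPN/3J kidneys (-1.35, SE 0.47, adjusted p 0.0770). It was called there by DESeq2 (0.0273) and limma-voom (0.0283), and by edgeR without BPH/2J vehicle replicate 5 (0.0143). Cyp2c23, listed in RefSeq with the synonym Cyp2c44 and known as a renal epoxygenase in the mouse, averaged 3.51 ± 0.88 CPM in BPH/2J vehicle kidneys, against 3.38 ± 1.18 CPM in BPN/3J vehicle kidneys (SD, n = 5 and 4). It averaged 3.36 ± 0.91 CPM in BPH/2J Cmpd17b kidneys, against 3.02 ± 0.92 CPM in BPN/3J Cmpd17b kidneys (n = 4 and 5), and was not called (0.06 and 0.16, adjusted p 0.922 and 0.757 by edgeR).

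The remaining single-gene subfamilies and family 1 showed no strain call. Cyp1b1, which hydroxylates oestrogens outside the liver, had a mean of 14.9 ± 3.65 CPM in BPH/2J vehicle kidneys, against 11.7 ± 4.19 CPM in BPN/3J vehicle kidneys (SD, n = 5 and 4). Cyp1a1, the classic aryl hydrocarbon receptor target, had 0.872 ± 0.299 CPM in BPH/2J vehicle kidneys, against 1.13 ± 0.526 CPM in BPN/3J vehicle kidneys. Cyp2s1 had 9.55 ± 1.70 CPM in BPH/2J vehicle kidneys, against 8.58 ± 0.593 CPM in BPN/3J vehicle kidneys. Cyp2u1, a long-chain fatty acid hydroxylase, had 1.21 ± 0.437 CPM in BPH/2J vehicle kidneys, against 1.12 ± 0.458 CPM in BPN/3J vehicle kidneys. Adjusted p for these 4 lay between 0.385 and 0.839 by edgeR under vehicle. Cyp3a13 and Cyp2c38, each under 1 CPM on average in every group, were not called in either strain comparison. Cyp2r1, the vitamin D hydroxylase, was not tested, with a mean of 0.0887 CPM in BPH/2J vehicle kidneys and 0.00589 CPM in BPN/3J vehicle kidneys.

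**Figure D4:**
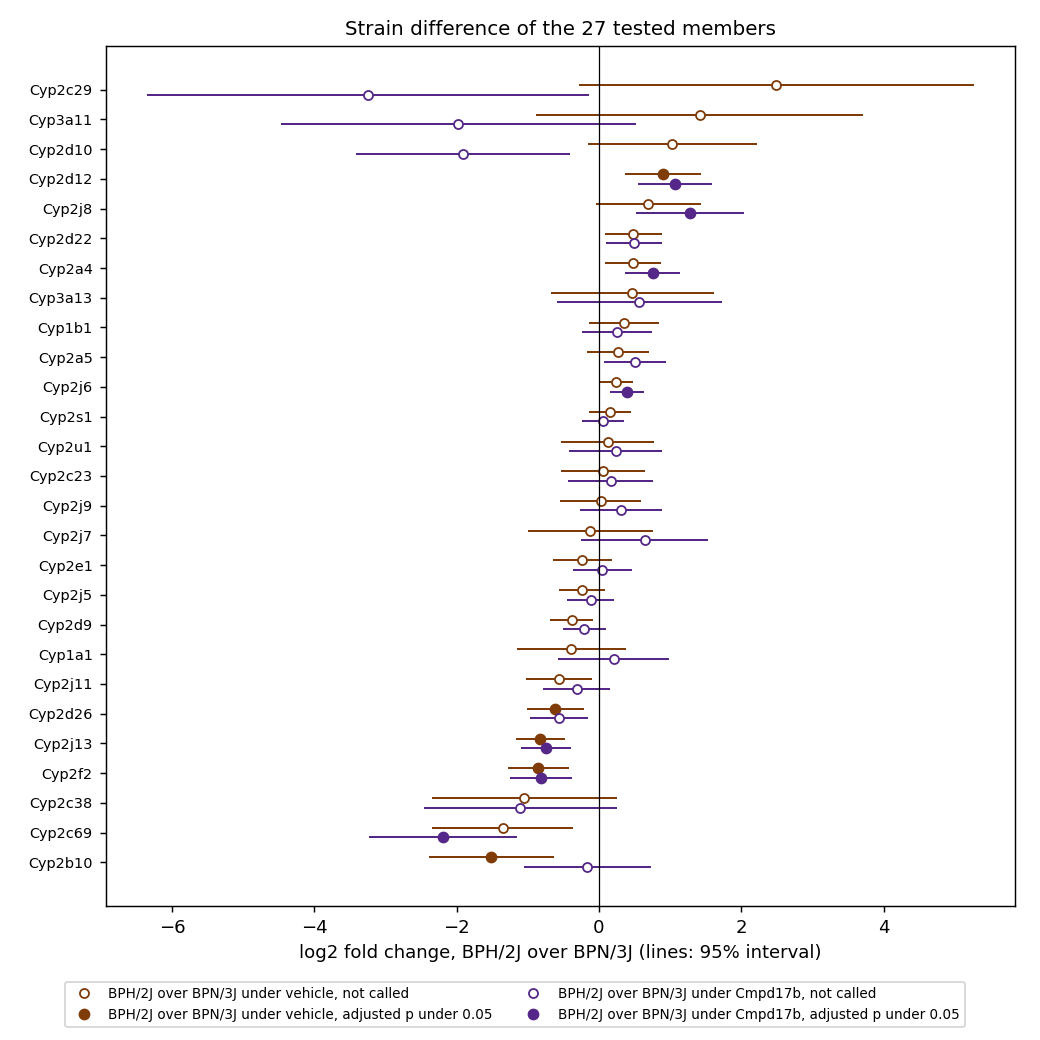
Log2 fold change of BPH/2J over BPN/3J with its 95% interval for the 27 tested genes under vehicle and under Cmpd17b, filled where the adjusted p is under 0.05. Cyp2d12 lies to the right and Cyp2j13 and Cyp2f2 to the left with filled points under both treatments, and the widest intervals under both treatments belong to Cyp2c29 and Cyp3a11.

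Whether Cmpd17b changed renal P450 expression was asked in each strain, and no member passed the test. With edgeR's quasi-likelihood test, 0 of 27 members were called in BPH/2J (0.164% of all genes tested) and 0 of 27 in BPN/3J (0% of all genes tested). At an unadjusted p under 0.05 there were 2 in BPH/2J and 3 in BPN/3J, against 3.7% and 2.53% of all genes tested. DESeq2 and limma-voom also called none in either strain. The interaction, which asks if the Cmpd17b effect differs between strains, called 0 of 27, against 0.0304% of all genes tested. Its unadjusted p was under 0.05 for 3 members, against 3.22% of all genes tested. DESeq2 and limma-voom called none for the interaction. The median log2 fold change over the members was 0.04 in BPH/2J and -0.06 in BPN/3J, beside -0.01 and -0.003 over all genes tested. Group ranges did not overlap for 0 members in BPH/2J and for 1 member in BPN/3J, against 0.932% and 1.78% of all genes tested.

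For the abundant members the intervals were as follows. The Cmpd17b log2 fold change of Cyp2e1 was 0.10 in BPH/2J (95% interval -0.31 to 0.52) and -0.18 in BPN/3J (-0.59 to 0.24). For Cyp2j5 it was 0.11 in BPH/2J (-0.22 to 0.44) and -0.02 in BPN/3J (-0.34 to 0.31), and for Cyp2j13 0.02 (-0.33 to 0.36) and -0.06 (-0.41 to 0.28). These bounds give the changes compatible with the data, not what the groups could detect.

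Cyp2f2 came nearest to a shared response. In BPH/2J it had 1.81, 3.67, 2.80 and 3.17 CPM under Cmpd17b, against 2.33, 1.70, 1.53, 2.14 and 1.82 CPM under vehicle, and the groups overlapped (log2 fold change 0.58, SE 0.21, unadjusted p 0.0119, adjusted p 1 by edgeR). In BPN/3J it had 4.79, 5.06, 4.77, 5.39 and 5.09 CPM under Cmpd17b, against 2.72, 4.40, 2.76 and 3.88 CPM under vehicle. These did not overlap (0.55, SE 0.20, unadjusted p 0.0149, adjusted p 1 by edgeR). Neither passed the test.

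Cyp2a5 in BPN/3J had 146, 94.5, 103, 195 and 148 CPM under Cmpd17b, against 171, 170, 183 and 264 CPM under vehicle, which overlapped (-0.52, SE 0.21, unadjusted p 0.0208, adjusted p 1 by edgeR). In BPH/2J its log2 fold change was -0.28 (SE 0.21, adjusted p 1). Cyp2b10 had the third-lowest interaction p of the members (interaction log2 1.35, SE 0.59, unadjusted p 0.0351, adjusted p 1 by edgeR), with 0.68 in BPH/2J and -0.67 in BPN/3J.

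Cyp2d10 and Cyp2c29, both chiefly liver P450s and both near the limit of testing, had the lowest interaction p of the members. Cyp2d10 had 0.0335, 0.0378, 0.156 and 0.000 CPM in BPH/2J Cmpd17b kidneys, against 0.816, 0.117, 0.410, 0.309 and 0.346 CPM in BPH/2J vehicle kidneys, which overlapped (log2 fold change -2.66, SE 0.70, adjusted p 0.441 by edgeR). In BPN/3J its log2 fold change was 0.28 (SE 0.58, adjusted p 1), and the interaction was -2.94 (SE 0.91, unadjusted p 0.00468, adjusted p 1 by edgeR). Cyp2c29 had 0.0335, 0.114, 0.000 and 0.000 CPM in BPH/2J Cmpd17b kidneys, against 1.51, 0.000, 0.000, 0.0281 and 0.130 CPM in BPH/2J vehicle kidneys (-2.98, SE 1.5, adjusted p 1). In BPN/3J it had 0.665, 0.415, 0.670, 0.185 and 0.102 CPM under Cmpd17b, against 0.0336, 0.205, 0.000 and 0.000 CPM under vehicle (2.76, SE 1.31, adjusted p 1), and its interaction had an unadjusted p of 0.00965 (adjusted p 1). Cyp2d10 had too few reads to be tested without BPH/2J vehicle replicate 1 or 3 or BPN/3J Cmpd17b replicate 2, and Cyp2c29 without BPH/2J vehicle replicate 1 or BPN/3J Cmpd17b replicate 1, 2 or 3.

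Liver transcripts were measured beside these low members. BPH/2J vehicle replicate 1, which had the highest Cyp2c29, Cyp3a11 (2.24 CPM) and Cyp2d10, also had the highest level of Alb, serum albumin, at 36.6 CPM, against at most 12.1 CPM elsewhere. The liver marker sum was lowest, 53.1 CPM, in BPN/3J Cmpd17b replicate 2. That library had 0.913 CPM of Cyp3a11, 0.415 CPM of Cyp2c29 and 8.27 CPM of Alb. Every library with at least 8.12 CPM of Alb had at least 0.754 CPM of Cyp3a11. All other libraries had at most 5.20 CPM of Alb and 0.509 CPM of Cyp3a11. Cyp2d10 did not divide in this way, with 0.410 CPM in BPH/2J vehicle replicate 3 beside 2.76 CPM of Alb. The 12 liver markers summed to 54.2 to 120 CPM in BPH/2J Cmpd17b kidneys and 68.1 to 162 CPM in BPH/2J vehicle kidneys, and to 53.1 to 111 CPM in BPN/3J Cmpd17b kidneys and 64.3 to 107 CPM in BPN/3J vehicle kidneys. None of the 12 was at 0 in every library of a group, and of 11 tested 0 were called for Cmpd17b in either strain and 1 was higher in BPH/2J under vehicle. Their part in the P450 values was not tested.

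**Figure D5:**
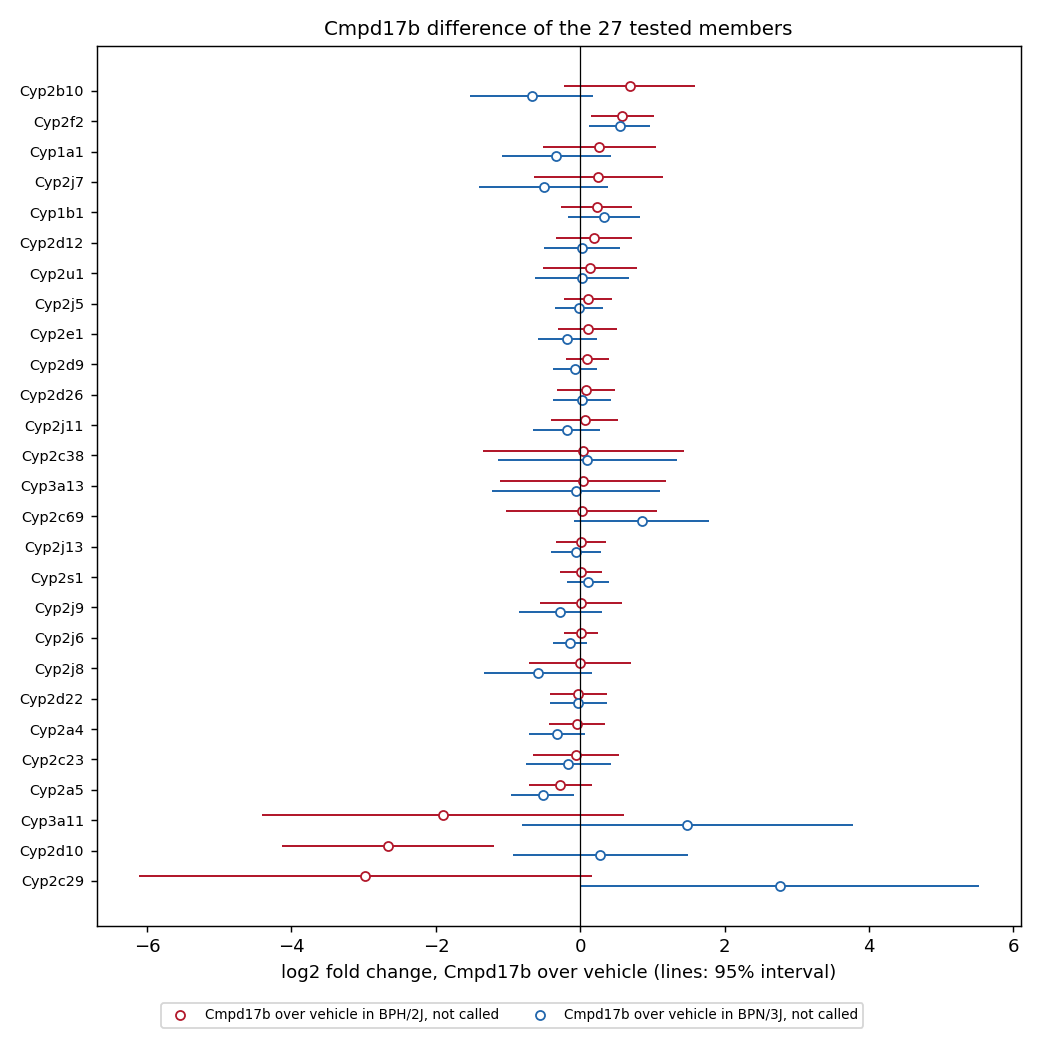
Log2 fold change of Cmpd17b over vehicle with its 95% interval for the 27 tested genes in BPH/2J and in BPN/3J, all open because none was called. Most points lie close to 0, and Cyp2c29 lies at -2.98 in BPH/2J and 2.76 in BPN/3J with the widest intervals.

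Genes that serve or control P450s were counted from fixed lists in the 2 strain comparisons. None of those lists had a call for Cmpd17b in either strain or for the interaction by edgeR. Beside the list counts stand the shares of all genes tested, 10.8% called under vehicle and 10.4% under Cmpd17b. Higher in BPH/2J were 5.82% and 5.71%, and lower 4.94% and 4.65%. A list count near these shares is not read as a result about the list. Of 7 tested electron donors, 1 was called under each treatment, Cyb5r3, the cytochrome b5 reductase, at 277 ± 40.7 CPM in BPH/2J vehicle kidneys, against 186 ± 22.8 CPM in BPN/3J vehicle kidneys (SD, n = 5 and 4). Its log2 fold change was 0.58 under both treatments (adjusted p 0.00496 and 0.00395 by edgeR). Por, the main donor, averaged 210 ± 30.5 CPM in BPH/2J vehicle kidneys, against 251 ± 0.955 CPM in BPN/3J vehicle kidneys, and was not called (-0.26, adjusted p 0.206). The list's median log2 fold change was -0.14 under vehicle and -0.10 under Cmpd17b.

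Of 18 tested regulators, 0 were higher and 1 lower under vehicle, where 10.8% of all genes tested were called. Under Cmpd17b 0 were higher and 2 lower, beside 10.4% of all genes tested. The factor Cebpa was lower in BPH/2J in both (-0.52, adjusted p 0.0414, and -0.81, adjusted p 0.00236 by edgeR), and Tiparp, an aryl hydrocarbon receptor repressor and target, under Cmpd17b (-0.49, adjusted p 0.0418). Hnf4a, a tubular and liver nuclear receptor, averaged 578 ± 107 CPM in BPH/2J vehicle kidneys, against 701 ± 50.6 CPM in BPN/3J vehicle kidneys, and was not called (-0.28, adjusted p 0.206). Of 6 tested aryl hydrocarbon receptor targets outside the P450s, Xdh, the xanthine oxidoreductase, was lower in both (-0.74, adjusted p 0.0456, and -1.29, adjusted p 0.00136), and Tiparp stands in this list too.

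P450s need haem, and of 13 genes of its synthesis and breakdown 1 was higher and 2 lower under vehicle. Under Cmpd17b 2 were higher and 1 lower. Of all genes tested, 10.8% and 10.4% were called in these comparisons. The aminolevulinate synthase Alas1, the first step, averaged 63.1 ± 18.6 CPM in BPH/2J vehicle kidneys, against 108 ± 13.0 CPM in BPN/3J vehicle kidneys, and was called lower (-0.78, adjusted p 0.0474 by edgeR, and -1.04, adjusted p 0.0102, under Cmpd17b). The next enzyme, Alad, averaged 290 ± 94.6 CPM in BPH/2J vehicle kidneys, against 113 ± 19.8 CPM in BPN/3J vehicle kidneys, and was called higher (1.37, adjusted p 0.00207, and 1.44, adjusted p 0.000856, under Cmpd17b). The biliverdin reductase Blvra was lower under vehicle (-0.57, adjusted p 0.0449), and Alas2, the erythroid synthase, higher under Cmpd17b (0.84, adjusted p 0.0444).

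Downstream of the epoxygenases, 0 of 5 tested epoxide hydrolase and fatty acid genes were called under either treatment. Ephx2, the soluble hydrolase that opens arachidonic acid epoxides, averaged 497 ± 86.5 CPM in BPH/2J vehicle kidneys, against 530 ± 94.5 CPM in BPN/3J vehicle kidneys (-0.09, adjusted p 0.731 by edgeR). Of the flavin monooxygenases, another oxygenase family for drugs, Fmo5 was called lower in BPH/2J under each treatment. It averaged 83.1 ± 11.2 CPM in BPH/2J vehicle kidneys, against 164 ± 24.5 CPM in BPN/3J vehicle kidneys (-0.98, adjusted p 4.03e-05, and -0.91, adjusted p 9.12e-05, under Cmpd17b).

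Several renal P450s are androgen-dependent in mice, so 7 androgen-responsive kidney genes were counted as well. Under vehicle 1 was higher and 3 were lower in BPH/2J (5.82% and 4.94% of all genes tested). Under Cmpd17b 1 was higher and 1 lower (5.71% and 4.65% of all genes tested). Odc1, ornithine decarboxylase, was lower (-1.76, adjusted p 0.00014, and -1.40, adjusted p 0.00145 by edgeR) and Gusb, a lysosomal glucuronidase, higher (0.99, adjusted p 0.00255, and 1.39, adjusted p 6.58e-05). Timd2 (-0.47, adjusted p 0.0358) and Slc22a30 (-0.46, adjusted p 0.0268) were lower under vehicle.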

How the data were processed

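Polyadenylated kidney RNA of 19 mice was sequenced as paired reads. The submitters' processing notes name Trim Galore 0.6.7, STAR 2.7.9a and the build mm39. How reads were counted, and with which annotation, is not given in the sources used here. The authors deposited 1 table of estimated counts per gene, which were rounded to whole numbers.

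Groups came from the labels' strain and treatment fields, and replicate numbers follow accession order. Genes passed with edgeR's filterByExpr (minimum count 10, minimum total 15). The 4 groups of 18 libraries entered 1 robust quasi-likelihood fit (edgeR 4.0.16 in R 4.3.3, TMM scaling), adjusted by Benjamini-Hochberg over 16421 genes and called at adjusted p under 0.05. CPM are counts per 1000000 counts on the TMM scale. Alternatives used DESeq2 1.42.0, limma 3.58.1 (voom), other scaling, filters and samples. The fit was tested on simulated data.

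The members and lists were chosen with earlier results of these data known. Genes were named by a rule: up to 6 called rises and 6 called falls per strain comparison, the 3 smallest p per Cmpd17b comparison and interaction, the 8 highest genes, 8 fixed genes, and up to 4 genes per list. Other tested members are named with their level or test outcome. Por, Hnf4a and Ephx2 were named for their roles after their values were seen. Transcript and promoter sequences came from GENCODE GRCm38 and RefSeq GRCm38.p6 and matched 60 and 52 of 61 members by symbol. Totals of 21400111 to 40998650 counts per library leave low members imprecise, down to 133 counts over 18 libraries for Cyp2d10. Some list results are not reported here.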

Additional observations from a re-analysis of the deposited data

Results flagged for a closer look

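A single kidney stood far from the others of its group in 10 of the 87 gene-by-group sets of 4 or 5 kidneys examined (11.5%), by a gap past Dixon's 95% critical value. Chance is taken to give about 1 in 20 for that limit. All values are CPM.

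BPH/2J Cmpd17b replicate 5 had the lowest Cyp2j5 of its group, 695, against 1245 in the next kidney, and the highest Cyp2d26, 94.7, against 76.8. It also had the highest mitochondrial share, 26.2% of counts, and the highest value of all 18 libraries for 9 of the 27 tested members. The part of RNA quality in these values was not tested.

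BPN/3J vehicle replicate 4 had the highest Cyp2e1, 4271, against 2663 in the next kidney, the highest Cyp2a5, 264, against 183, and the lowest Cyp2j5, 1218, against 1258. In that last set the whole range is narrow. BPN/3J Cmpd17b replicate 2 had the lowest Cyp2a4, 207, against 352 in the next kidney, and BPH/2J vehicle replicate 4 the highest Cyp2a4, 699, against 589.

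The other 3 were near the detection limit. Cyp2c29 was 1.51 in BPH/2J vehicle replicate 1, against 0.130 in the next kidney, beside the highest albumin of all libraries, and 0.205 in BPN/3J vehicle replicate 2, against 0.0336. Cyp2r1 was 0.0236 in BPN/3J vehicle replicate 3 and 0 in the other 3 kidneys of its group.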

How the results depend on the processing

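The alternatives were run for the counts of called members, the summed levels and 12 members in the comparisons that named them, and none of these changed direction. The counts of called members moved as follows. Under vehicle, 5 became 2 with the 2 groups fitted alone, 0 with all 19 libraries and 1 when an absolute log2 fold change of at least 1 was also required, and 2 to 6 without single replicates, with 3 or fewer without BPH/2J vehicle replicate 3 or 4 or BPN/3J vehicle replicate 1, 2 or 3. Under Cmpd17b, 7 became 1 with all 19 libraries and 3 with that fold limit, and 5 to 8 without single replicates. Other tests, scaling, filters and the fit that was not robust gave 5 or 6 under vehicle and 6 to 8 under Cmpd17b. Both Cmpd17b comparisons and the interaction gave 0 under every alternative run, single replicates left out included. The interaction was not run with fewer groups. Summed levels moved by less than 1 SD with CPM of the library total. BPH/2J Cmpd17b replicate 1 holds heart transcripts, and the cause of the loss of calls with it was not tested. No paired analysis was possible because the labels give no replicate numbers shared between groups.

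Members under 1 CPM rest on few counts, and Cyp2d10 and Cyp2c29 had too few to be tested in 3 and 4 of the 18 omissions, with at least 1 CPM in 4 libraries required, and with the 2 groups fitted alone. The simulated data held changes of set size in genes drawn at random from those averaging at least 1 CPM, not in the members as a set. What size of Cmpd17b change in the members 4 or 5 mice a group could detect is not reported here.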

Other observations

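BPH/2J Cmpd17b replicate 1, left out above, had its own P450 profile. As CPM of its library total, Cyp2e1 was 6.49, against a median of 2813 in the other 18 libraries, and Cyp2j5 was 2.49, against 1285. Cyp2a4 was at 0.252% of the median of the other libraries, Cyp2d9 at 0.214%, Cyp2j13 at 0.211% and Cyp2d12 at 0.170%. Other members were closer to their kidney level. Cyp2d22 was 10.8 CPM, against a median of 16.6, Cyp2j6 was 8.69 against 42.6, and Cyp1b1 was 5.59 against 14.2. Cyp2u1 was 2.39 CPM, against a median of 1.22, and Cyp3a11 was 0.291 against 0.169. Thus the 9 members highest per kilobase were each under 0.3% of their median in this library, while Cyp2u1 and Cyp3a11 lay above theirs. The Cyp3a11 value was low and lay within the 0 to 2.24 CPM (TMM scale) of the other 18 libraries. These are values of 1 library with no replicate.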
